A study of Mus musculus with 6 samples.

Results

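Nuclear receptors are transcription factors that switch genes on or off when a lipid, bile acid, vitamin or drug binds them, and coregulators are the proteins they recruit to do so. Many liver receptors bind DNA as a pair with RXR, the shared partner for retinoids. In hepatocytes FXR and its target SHP restrain bile acid synthesis, PXR and CAR induce drug-metabolising enzymes, LXR handles cholesterol, PPAR-alpha drives fat burning in fasting and HNF4-alpha maintains hepatocyte identity. The NR4A receptors differ in that their own transcripts are induced within minutes to hours of a stimulus. This description covers 39 such genes out of 49212 in the count tables: 29 receptors other than the steroid, thyroid, clock and PPAR-gamma receptors, and 10 coregulators. They were taken by gene symbol and not by a cut on their values, but earlier results of these data were known when they were chosen. All 39 symbols were found.

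Liver RNA came from C57BL/6J mice aged 15 weeks, with 3 placebo libraries and 3 from mice given a DHT pellet, which the labels call PCOS (polycystic ovary syndrome) mice. DHT (dihydrotestosterone) is an androgen that is not converted to estrogen. The labels give no dose, treatment length, sex, collection time or litter, and do not tie each library to an animal of its own. Every p-value therefore reflects the spread between these libraries alone, which may be technical. Levels are given as CPM, the count scaled by the library's total and its TMM factor. Calls need an adjusted p below 0.05 in edgeR's quasi-likelihood test, with Benjamini-Hochberg adjustment over 15126 genes.

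Total counts lay between 41336844 and 60209462 per library. Genes on the Y chromosome summed to between 139 and 156 CPM in the libraries labelled DHT and to between 1.103 and 2.344 CPM in placebo, the only libraries with a high level being those labelled DHT. The labels give no sex. For the genes described below, a difference in sex between the groups and an effect of DHT cannot be told apart. Every difference "with DHT" here is one between libraries so labelled. The summed level of 8 hepatocyte markers lay between 106500 and 156500 CPM in placebo and between 77500 and 92450 CPM with DHT, with 5 of 8 below placebo in every library labelled DHT and 0 called (4 at an unadjusted p under 0.05). The replicate block, which pairs libraries by number, called 3 of them lower, Ahsg, Cps1 and Tat. Of the 5 hepatocyte markers below placebo, Alb, Hpx and Serpina1a overlapped it on CPM without TMM scaling. Over all genes tested, 10.9% lay below placebo in every library labelled DHT and 15.9% had an unadjusted p under 0.05 in edgeR. Of 8 bile duct markers 5 also lay below placebo in every library labelled DHT, with a median log2 fold change of −0.97, 0 called (5 at an unadjusted p under 0.05) and Krt19 called lower with the block. Their sum, mostly Spp1, was 82.5 to 93.9 CPM in placebo and 51.9 to 103.8 CPM with DHT. The part of these marker differences in the results below was not tested. T, NK and B cell markers summed to 3.80 to 8.98 CPM in placebo and 3.26 to 4.12 CPM with DHT, and Gzma, at 7 to 23 counts with DHT, was called lower, a call lost with library size alone and without any 1 library other than placebo 3 (adjusted p up to 0.176). Kupffer cell markers summed to 256.7 to 401 and 271.5 to 391.2 CPM, and neutrophil markers to 1.18 to 3.58 and 2.37 to 3.93 CPM. Adipocyte and muscle markers summed to at most 0.0895 CPM in any library. Placebo 3 stood apart from placebo 1 and 2, with the lowest share of mitochondrial counts, 3.23%, against 4.83% to 8.48% in the other libraries. In bulk tissue, fewer cells of a type and less RNA per cell cannot be told apart.

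Of the 39 genes, 36 passed the filter on low counts, 1 was called higher with DHT and 0 were called lower. The called gene was Nr4a2, which encodes NURR1, an orphan receptor that acts without a known hormone. Of all genes tested, 1.65% were called, 0.952% higher and 0.701% lower. DESeq2 called 2 members higher, Nr4a1 and Nr4a2, and 0 lower, where it called 7.02% of all genes, 3.29% higher and 3.73% lower. At an unadjusted p under 0.05 there were 2 members, Nr4a1 and Nr4a2, where 15.9% of all genes had such a p, so the groups of members described below without NR4A genes hold 0 such genes. Differences in most members were small: the absolute log2 fold change (DHT minus placebo) was under 0.5 in 26 of 36 and under 1 in 34 of 36. The median absolute change was 0.30 in the members and 0.39 over all genes tested, and the median signed change was 0.04 against −0.02.

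**Figure D1:**
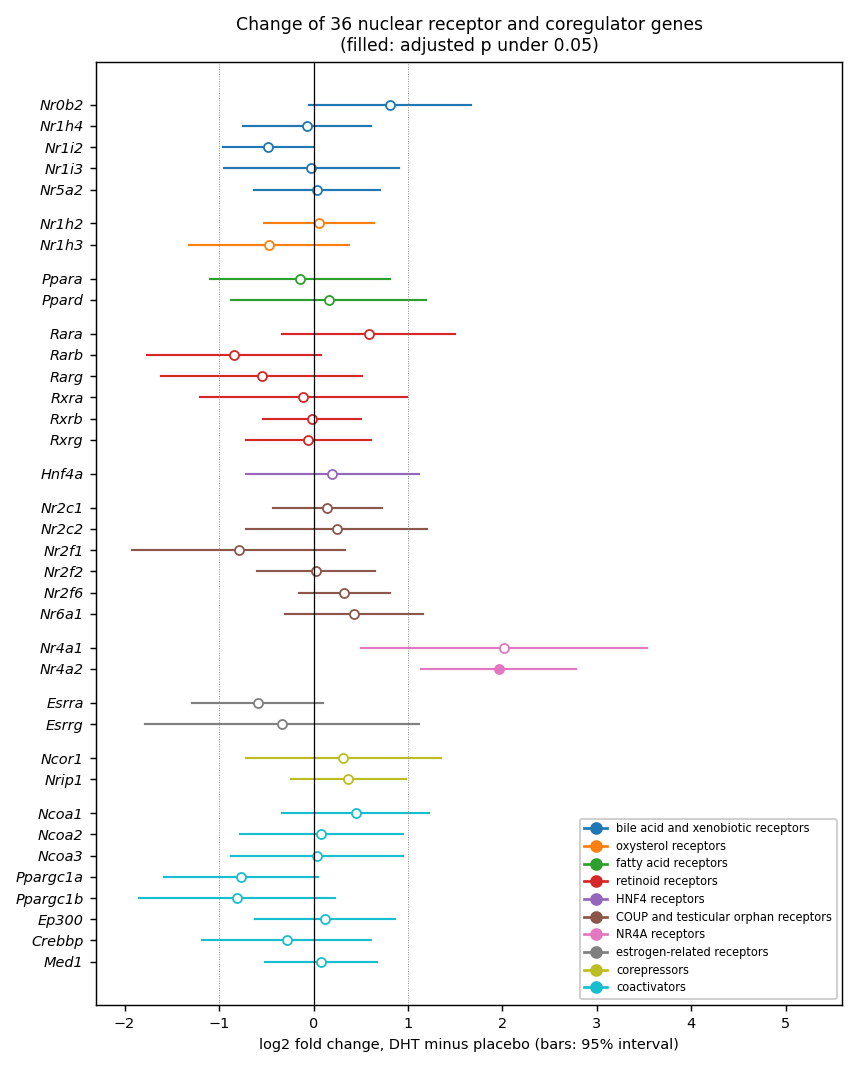
Log2 fold change, DHT minus placebo, of the 36 tested members (points) with 95% intervals (bars), coloured by role, with dotted lines at a change of 2-fold. Nr4a1 and Nr4a2, the tested NR4A receptors, sit near a log2 fold change of 2, and Nr4a2 (1.96) is the filled point. The other 34 lie between −0.84 and 0.81.

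The sequences before the NR4A genes are shown because Nr4a1 and Nr4a2 are the tested members that moved furthest. Nr4a3 is shown as a gene of the same family and was not tested. Each run ends at the base before the annotated start of the gene in the deposited tables, is taken from RefSeq (build GRCm38.p6) and reads 5′ to 3′ on the gene's strand. Capitals mark TGACG or its reverse complement CGTCA, the core of the cAMP response element that CREB binds. The Nr4a3 run is shorter because the gene starts at a different base in the deposited tables than in RefSeq.
Nr4a1, chr15:101266596-101266845 (plus strand): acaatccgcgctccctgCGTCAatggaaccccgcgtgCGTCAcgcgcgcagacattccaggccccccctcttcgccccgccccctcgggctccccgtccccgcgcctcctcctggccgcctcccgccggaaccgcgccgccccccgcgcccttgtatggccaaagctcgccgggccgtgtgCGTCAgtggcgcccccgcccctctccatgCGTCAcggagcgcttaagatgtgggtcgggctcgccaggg
Nr4a2, chr2:57124004-57124253 (minus strand): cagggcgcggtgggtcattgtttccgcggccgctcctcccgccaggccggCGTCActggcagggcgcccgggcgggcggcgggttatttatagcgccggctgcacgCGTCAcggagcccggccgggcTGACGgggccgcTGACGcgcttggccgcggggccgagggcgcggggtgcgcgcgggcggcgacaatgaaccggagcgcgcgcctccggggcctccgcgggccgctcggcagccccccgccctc
Nr4a3, chr4:48045055-48045152 (plus strand): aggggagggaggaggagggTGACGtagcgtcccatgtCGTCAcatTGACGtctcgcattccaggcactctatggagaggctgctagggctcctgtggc
The Nr4a1 and Nr4a2 runs each held 4 copies of the core within 250 bases, and the Nr4a3 run held 3 within 98 bases (4 in its whole RefSeq window of 250). Of 32817 RefSeq promoter windows of 250 bases, 17.7% held at least 1 copy on either strand and 0.137% held at least 4. The full palindrome TGACGTCA, which contains the core on both strands, was in 0 of these 3 runs and in 1.55% of all windows. The E-box CACGTG, the receptor core AGGTCA and its longer NR4A form AAAGGTCA (which contains it) also had 0 matches in the 3 runs, against 6.02%, 14% and 1.34% of all windows. Among the 35 members with a RefSeq window, CACGTG was found before Nr0b2, Nr1i3 and Rara, and TGACG before 10 genes. These 35 genes had 52 windows and were counted if any window matched, so these counts are not comparable with the shares of windows. A match here is a run of letters and not a measured binding site.

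Nr4a2 (chromosome 2, 57106830 to 57124003) had 0.292, 0.296 and 0.267 CPM in placebo 1 to 3 and 1.201, 1.07 and 1.07 CPM in DHT 1 to 3. Each of these libraries held few reads of it, between 13 and 17 counts in placebo and between 48 and 74 with DHT. The groups did not overlap and the spread within each was small, so that every library labelled DHT stood well above every placebo library. Nr4a2 rose 3.89-fold with DHT, its mean being 0.285 ± 0.0155 CPM in placebo and 1.12 ± 0.0739 CPM in DHT (SD, n = 3 each), with a log2 fold change of 1.96 ± 0.36 (SE, 95% interval 1.14 to 2.78, edgeR adjusted p = 0.039). The size of the change hardly depended on any 1 library (1.91 to 1.99), but the call did. It was kept without placebo 3 (adjusted p = 0.0277) and lost without any other single library, with an adjusted p of 0.122 without placebo 1, 0.102 without placebo 2, 0.195 without DHT 1, 0.162 without DHT 2 and 0.117 without DHT 3.

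Nr4a1 (chromosome 15, 101266846 to 101274792), which encodes NUR77, had 0.843, 0.493 and 0.247 CPM in placebo and 3.96, 1.59 and 0.872 CPM with DHT. The groups did not overlap, but DHT 3 lay only just above placebo 1, at 39 counts against 49 in a larger library. Its log2 fold change was 2.01 ± 0.66 (edgeR adjusted p = 0.2). With the replicate number as a block it was 1.93 and called (adjusted p = 0.00116), and DESeq2 also called it (adjusted p = 0.0299). Without DHT 1, the library with the highest level, the log2 fold change was 1.22 (adjusted p = 0.599). The block took the members called higher from 1 to 2, while it took all genes called from 1.65% to 10.7% (higher, 5.44%, lower, 5.28%).

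Nr4a3 (chromosome 4, 48045153 to 48086447), which encodes NOR1, did not pass the filter. It held 20, 10 and 3 counts in placebo and 8, 2 and 1 counts with DHT, or 0.344, 0.197 and 0.0617 CPM against 0.130, 0.0358 and 0.0224 CPM. In each numbered pair the library labelled DHT was the lower, and the groups overlapped. Within each library, Nr4a3 took 12.2%, 10.8% and 5.86% of the NR4A level per kilobase of exon in placebo and 1.13%, 0.654% and 0.602% with DHT. These shares rest on at most 8 counts per library labelled DHT. Nr4a1 and Nr4a2 are part of the sum, so their higher levels with DHT lower the Nr4a3 share at any Nr4a3 level. The difference in the Nr4a3 shares had an exact two-sided permutation p of 0.1, the smallest that 3 against 3 allows, and 0.533 after Benjamini-Hochberg adjustment over 16 family shares.

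**Figure D2:**
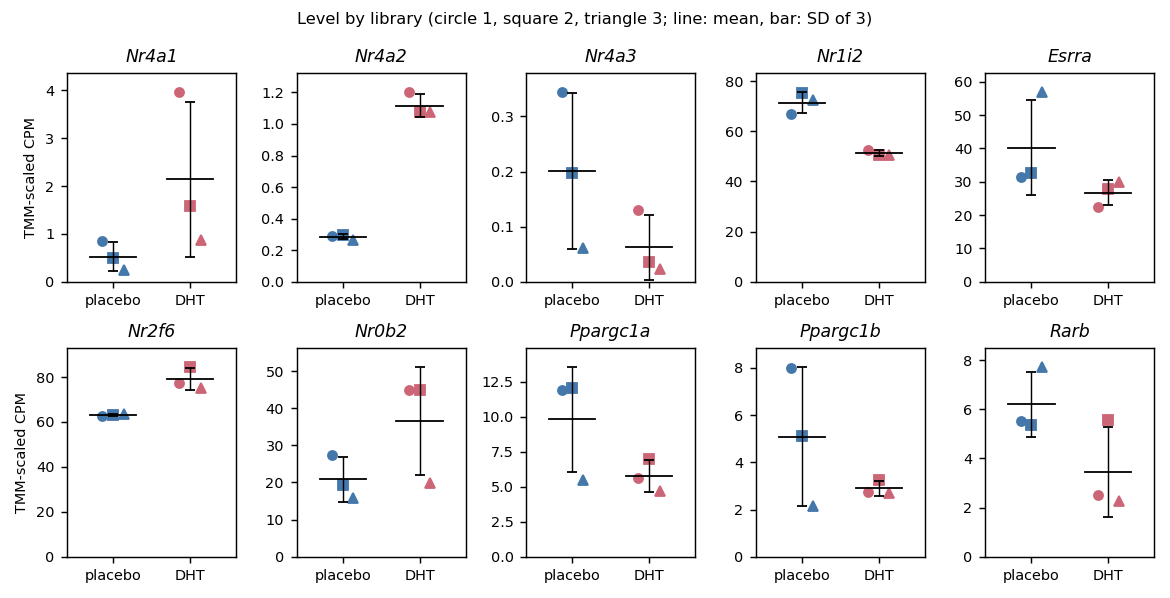
TMM-scaled CPM of 10 members in each library, with circles, squares and triangles for libraries 1, 2 and 3, lines for the group mean and bars for the SD of 3. Nr4a2 is at 0.267 to 0.296 in placebo and at 1.07 to 1.201 with DHT, while Nr4a1 spreads from 0.872 to 3.96 with DHT.

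Other genes that respond to a stimulus as the NR4A genes do were read from a list of 12 immediate early genes. Of 11 tested, 0 were called by edgeR in either direction (2 at an unadjusted p under 0.05), with a median log2 fold change of −0.21. Ier2, the member with the smallest p, had 36.4 ± 16.0 CPM in placebo and 16.3 ± 1.36 with DHT (log2 fold change −1.16 ± 0.33, edgeR adjusted p = 0.152), and was called lower with the replicate block (adjusted p = 0.00624) and without placebo 3 (0.0474). DESeq2 (adjusted p = 0.0245) and limma voom also called Ier2 lower. The other gene at an unadjusted p under 0.05 was Egr1 (log2 fold change −3.08 ± 1.26), which rested on placebo 1. Egr1 had 152 CPM there, 7.37 and 3.02 in placebo 2 and 3, and 5.84 to 6.86 with DHT. The list summed to 326.7 CPM in placebo 1 and to 90.4 to 123.1 in the other libraries. Fos, a textbook member of this class chosen after its values were seen, had a log2 fold change of −0.35 ± 0.46. 

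Among the bile acid and xenobiotic receptors, 0 of 5 tested were called. Nr1i2, which encodes PXR, the sensor for drugs and toxic bile acids (chromosome 16, 38248323 to 38294824), had 66.9, 75.1 and 72.3 CPM in placebo and 52.7, 50.5 and 50.5 CPM with DHT. The groups did not overlap and each was tight, at 71.4 ± 4.16 and 51.3 ± 1.28 CPM (SD, n = 3 each). On the log2 scale the difference was −0.48 ± 0.21 (SE, edgeR adjusted p = 0.318), with a 95% interval of −0.96 to 0.01 that stops short of a 2-fold change.

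Nr0b2, which encodes SHP, a receptor with no DNA-binding domain that silences bile acid synthesis genes (chromosome 4, 133553376 to 133556536), had 27.5, 19.2 and 15.9 CPM in placebo and 44.9, 44.9 and 19.8 CPM with DHT. DHT 1 and 2 lay above every placebo library, and DHT 3 lay within their range. Its log2 fold change was 0.81 ± 0.37 (edgeR adjusted p = 0.336). Nr1h4, which encodes FXR, the bile acid receptor that induces SHP, had close means, at 116 ± 35.3 and 111 ± 13.0 CPM (log2 fold change −0.07 ± 0.29, 95% interval −0.75 to 0.60).

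Nr1i3, which encodes CAR, the partner of PXR in drug metabolism, had 24.1, 55.4 and 66.2 CPM in placebo and 41.2, 37.0 and 65.0 CPM with DHT. The groups overlapped fully, with a log2 fold change of −0.03 ± 0.40. Exons of Tomm40l on the opposite strand cover 74.9% of the Nr1i3 exons, and without the strand setting the reads of both genes cannot be told apart. Nr5a2, which encodes LRH-1, an activator of bile acid synthesis genes, was at 51.7 ± 17.1 and 53.1 ± 7.55 CPM (log2 fold change 0.04 ± 0.29). Vdr, the vitamin D receptor, was near absent, with 1 to 4 counts in each library, and was not tested.

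The targets of these receptors were followed in lists that hold no member. These lists and those further below were chosen with earlier results of these data known. Of 19 genes that PXR and CAR induce, 3 were called lower with DHT and 0 higher, with a median log2 fold change of −1.35. Akr1b7, an aldo-keto reductase gene (chromosome 6, 34412334 to 34423142), fell 18.6-fold, from 4.89, 3.31 and 2.82 CPM in placebo to 0.227, 0.197 and 0.157 CPM with DHT (edgeR adjusted p = 0.00267). Exons of Gm13857 on the opposite strand cover 27.2% of it. Ces2a, a carboxylesterase gene (chromosome 8, 104734003 to 104741634), fell 4.23-fold, from 453 ± 55.8 to 107 ± 26.6 CPM (adjusted p = 0.0137), and Por, the reductase gene that serves the cytochromes P450, fell 7.37-fold (adjusted p = 0.0125).

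At an unadjusted p under 0.05 there were 13 of the 19. In 13 of the 19 the libraries labelled DHT all lay below placebo and in 1, Aldh1a1, they all lay above, where 10.9% and 12.7% of all genes tested did so. With the replicate block 10 were called lower and 1 higher. Cyp3a11, the classic PXR target, had 4599 ± 1314 CPM in placebo and 1193 ± 445.6 with DHT (log2 fold change −1.95 ± 0.39, adjusted p = 0.0539, and 0.000244 with the block). Cyp2b10, the classic CAR target, had 24.9 ± 9.58 against 1.63 ± 1.77 CPM (log2 fold change −3.92 ± 0.79, adjusted p = 0.0579, and 2.74e-09 with the block). Both were chosen after their values were seen, and near-identical Cyp2b and Cyp3a genes may share their reads. Leaving out placebo 1, 2 or 3 gave 1, 2 or 7 genes called lower, and leaving out DHT 1, 2 or 3 gave 3, 1 or 3. Akr1b7 was called in each of these 6 fits, Por was lost without placebo 1 or DHT 2 (up to 0.0818), and Ces2a was kept only without placebo 3 or DHT 3 (otherwise up to 0.0818).

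Of 10 tested genes that FXR induces, 0 were called by edgeR (6 at an unadjusted p under 0.05, and 1 higher and 1 lower with the block), with a median log2 fold change of −0.23. Kng1, a kininogen gene and the one with the smallest p, had 2930 ± 451.5 CPM in placebo and 1552 ± 72.9 with DHT (log2 fold change −0.92 ± 0.26, edgeR adjusted p = 0.145). It was called lower without placebo 3 (adjusted p = 0.0387), with limma voom (0.0433) and with DESeq2 (0.00427), which called 3 of these targets lower. All 3 bile acid genes that SHP represses had an unadjusted p under 0.05, and 1 was called. Cyp7a1, the rate-limiting enzyme of the classic pathway (chromosome 4, 6265612 to 6275633), fell 7.18-fold, from 303, 308 and 213 CPM to 35.6, 30.4 and 48.9 CPM (adjusted p = 0.00518). No single library decided this call (adjusted p up to 0.0364 with 1 left out). Cyp8b1, the sterol 12-alpha-hydroxylase gene of the same pathway, lay the other way, at 139 ± 129 against 511 ± 98.9 CPM (log2 fold change 1.88 ± 0.61, adjusted p = 0.198, and 3.86e-06 with the block). Placebo 2, at 287 CPM, was the highest placebo library and still lay under all 3 with DHT, and without it Cyp8b1 was called higher. The bile acid uptake transporter gene Slc10a1 lay below placebo in every library labelled DHT (log2 fold change −0.84 ± 0.29, edgeR adjusted p = 0.221).

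**Figure D3:**
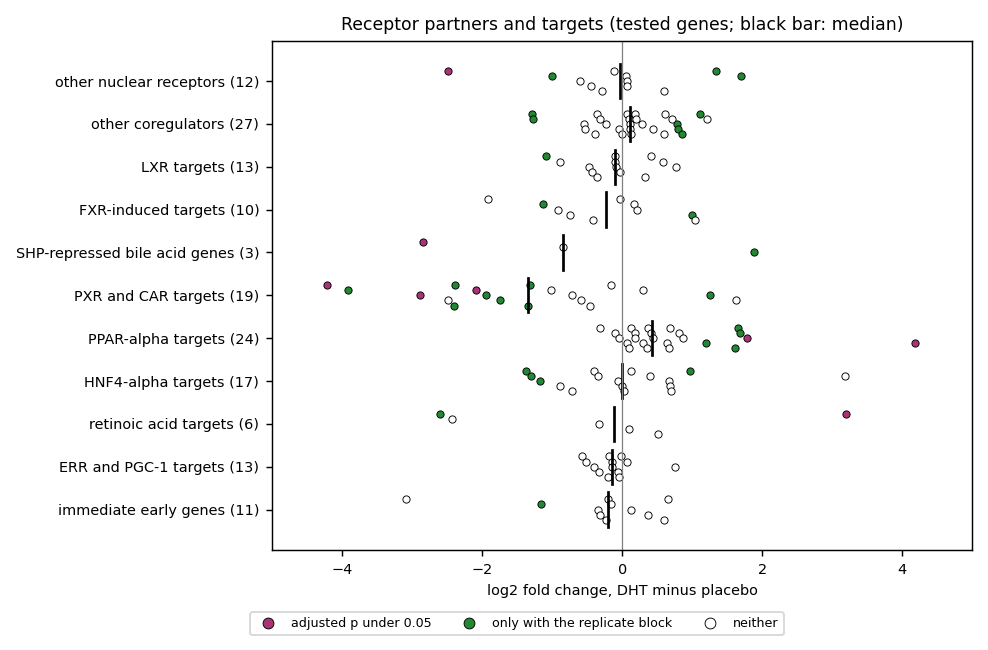
Log2 fold change, DHT minus placebo, of each tested gene in 11 lists of receptor partners and targets, with the number tested in brackets and a black bar at the median. Filled points were called (purple) or called only with the replicate block (green); the PXR and CAR targets centre at −1.35 and the PPAR-alpha targets at 0.43.

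The oxysterol receptors, which sense cholesterol derivatives, were not called. Nr1h3, which encodes the main liver form LXR-alpha, had 104, 104 and 223 CPM in placebo and 98.0, 82.2 and 131 CPM with DHT. Placebo 3 stood at over 2 times the other placebo libraries, and the other libraries lay between 82.2 and 131 CPM. Its log2 fold change was −0.47 ± 0.37 (edgeR adjusted p = 0.56) and −0.007 without placebo 3. Nr1h2, which encodes the widely expressed LXR-beta, was at 25.1 ± 5.86 and 26.2 ± 1.16 CPM. LXR-alpha took 80.7% to 94.2% of the LXR level per kilobase in the 6 libraries. Of 13 LXR targets 0 were called by edgeR (1 at an unadjusted p under 0.05), with a median log2 fold change of −0.11. Abcg5, a sterol exporter gene, had the smallest p (log2 fold change −1.09 ± 0.32, adjusted p = 0.156) and was called lower with the block (adjusted p = 0.00997), with DESeq2 (0.0267) and without placebo 3 (0.0366).

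The fatty acid receptors did not pass the test either. Ppara, the receptor gene that fasting engages, had 42.3, 119 and 45.9 CPM in placebo and 72.6, 62.8 and 52.3 CPM with DHT. Placebo 2 was far above the other placebo libraries, and the 3 libraries labelled DHT lay between. Its log2 fold change was −0.14 ± 0.42 with all libraries and 0.49 without placebo 2, so its sign is not settled. Ppard, the broadly expressed form, had 5.12 ± 2.63 and 5.72 ± 1.37 CPM and took 3.65% to 11.2% of the level per kilobase of this pair.

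Of 24 tested targets of PPAR-alpha, 2 were called higher and 0 lower, with a median log2 fold change of 0.43. In 8 of the 24 all libraries labelled DHT lay above placebo and in 0 below, against 12.7% and 10.9% of all genes. Fgf21, a fasting hormone gene (chromosome 7, 45613886 to 45615490), rose 18.1-fold, from 0.808, 0.414 and 0.596 CPM to 11.1, 16.3 and 5.77 CPM (edgeR adjusted p = 0.00708). Acaa1b, a peroxisomal thiolase gene (chromosome 9, 119148023 to 119157093), rose 3.43-fold, from 488, 710 and 418 CPM to 2102, 1932 and 1516 CPM (adjusted p = 0.0332). Exons of Dlec1 on the opposite strand cover 11.4% of Acaa1b. Library size alone gave 5 called higher, and the block gave 6. Leaving out placebo 3 gave 5 and leaving out any other library gave 1, with Fgf21 called each time and Acaa1b only without placebo 3. Cpt1a, Cyp4a10 and Ehhadh, long used as reporters of this receptor and chosen after their values were seen, had log2 fold changes of 0.18 ± 0.45, 0.06 ± 0.46 and −0.05 ± 0.29.

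Of 6 retinoid receptors, the RAR genes for retinoic acid and the RXR genes for the shared partner, 0 were called. Rxra, the dominant liver RXR, had 302, 482 and 121 CPM in placebo and 351, 280 and 207 CPM with DHT. The range of the placebo libraries enclosed every library labelled DHT, and the log2 fold change was −0.11 ± 0.48. Rxrb (26.1 ± 2.92 and 25.9 ± 2.69 CPM) and Rxrg (6.99 ± 2.01 and 6.73 ± 0.80 CPM) had nearly equal means. The 95% interval of Rxrb, −0.53 to 0.50, was among the narrowest. Per kilobase, Rxra made up 67.8% to 89.0% of the RXR level, Rxrb 8.05% to 20.1% and Rxrg 2.98% to 12.1%.

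The RAR genes stood far below Rxra in level. Rara had 14.5, 19.1 and 6.46 CPM in placebo and 24.1, 20.1 and 15.7 CPM with DHT (log2 fold change 0.58 ± 0.40). Rarb had 5.54, 5.34 and 7.71 CPM against 2.5, 5.56 and 2.28 CPM (log2 fold change −0.84 ± 0.40, edgeR adjusted p = 0.347), with DHT 2 inside the placebo range and DHT 1 and 3 below it. Rarg was the lowest of the RAR genes, at 4.58 ± 2.37 and 3.13 ± 0.91 CPM (log2 fold change −0.55 ± 0.46). As a share of the RAR level per kilobase, Rara took 49.0%, 59.3% and 32.8% in placebo and 76.1%, 63.1% and 74.1% with DHT. These shares did not overlap (exact two-sided permutation p = 0.1, adjusted 0.533 over 16 shares), and they were chosen after their values were seen.

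Of 6 tested retinoic acid targets 1 was called. Cyp26b1, which breaks down retinoic acid (chromosome 6, 84571414 to 84593908), rose 9.18-fold, from 0.585, 0.355 and 1.501 CPM to 10.01, 4.65 and 7.72 CPM (edgeR adjusted p = 0.038). The call was lost without any 1 library other than placebo 3 (up to 0.178) and with the filter of at least 1 CPM in 3 libraries (0.0517). Its relative Cyp26a1 lay the other way, at 15.8 ± 13.96 against 2.61 ± 0.63 CPM (log2 fold change −2.60 ± 0.67, adjusted p = 0.117, and 0.000145 with the block).

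Hnf4a, the hepatocyte identity receptor, was the most abundant member per kilobase by group mean, at 86.9 ± 40.2 CPM per kilobase in placebo and 99.9 ± 16.2 with DHT. Its CPM were 483, 575 and 202 in placebo and 555, 492 and 399 with DHT, so that only placebo 3 stood low. Its log2 fold change was 0.20 ± 0.40. Hnf4g, the intestinal form, had 7, 6 and 10 counts in placebo and 3, 4 and 2 with DHT, which did not overlap, and was not tested. Of 17 HNF4-alpha targets 0 were called by edgeR (5 at an unadjusted p under 0.05, and 1 higher and 3 lower with the block), with a median log2 fold change of −0.0012. F7, the coagulation factor VII gene, had the smallest p (log2 fold change −1.38 ± 0.30, edgeR adjusted p = 0.0742) and was called lower with the block (adjusted p = 0.000479) and without placebo 3 (0.0105). DESeq2 (adjusted p = 0.000881), limma voom, the fit with no low-count filter and the fit without both libraries numbered 3 also called F7 lower. Apoa4, chosen after its values were seen, lay the other way, with 176, 115 and 246 CPM in placebo and 1856, 2691 and 340 with DHT. The log2 fold change of Apoa4 was 3.19 ± 0.71 (edgeR adjusted p = 0.078, and 0.3 with the block). DESeq2, limma voom, the fit with no low-count filter and the fits without DHT 3 or both libraries numbered 3 called Apoa4 higher.

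Of the 6 orphan receptors of the COUP, testicular and germ cell families, 0 were called. Nr2f6, which encodes EAR2, a transcriptional repressor (chromosome 8, 71374123 to 71381960), had 62.5, 62.9 and 63.4 CPM in placebo and 77.5, 84.4 and 75.1 CPM with DHT. The groups did not overlap and placebo was almost constant, yet the difference was small (log2 fold change 0.33 ± 0.21, edgeR adjusted p = 0.481). Exons of Ocel1 on the opposite strand cover 54.4% of Nr2f6, so its reads are uncertain. Nr2f2, which encodes COUP-TFII and is known from vessels and stromal cells as well as hepatocytes, was at 38.3 ± 11.7 and 38.99 ± 2.71 CPM. The summed level of 10 endothelial markers ranged from 210 to 478 CPM in placebo and from 204 to 287 with DHT, with 0 of 10 called.

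Nr2f1, the related COUP-TFI gene, had 2.31, 0.788 and 1.03 CPM in placebo and 1.06, 0.608 and 0.716 CPM with DHT, with placebo 1 alone high. Over 11 stellate cell markers, 0 were called (3 at an unadjusted p under 0.05), 3 lay below placebo in every library labelled DHT, the median log2 fold change was −0.46 and Colec11 was called lower with the block (adjusted p = 0.0471). The 3 below placebo, Des, Colec11 and Hand2, overlapped it on CPM without TMM scaling. The summed level of the 11 markers was 299 to 613 CPM in placebo and 266 to 348 with DHT, also highest in placebo 1. The part of these cells in the Nr2f1 values was not tested. Nr2c1 and Nr2c2, the testicular receptor genes TR2 and TR4, had log2 fold changes of 0.15 ± 0.25 and 0.24 ± 0.42. Other counted exons cover 31.2% of Nr2c2. Nr6a1, the germ cell nuclear factor gene, had 3.81 ± 1.34 and 5.14 ± 0.59 CPM (log2 fold change 0.43 ± 0.32).

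The estrogen-related receptors, which with PGC-1 drive mitochondrial genes, had lower means with DHT and were not called. Esrra (chromosome 19, 6910977 to 6921813) had 31.5, 32.5 and 56.9 CPM in placebo and 22.6, 27.7 and 29.8 CPM with DHT. The groups did not overlap, with 29.8 CPM in DHT 3 against 31.5 CPM in placebo 1, but on CPM without TMM scaling they did. The log2 fold change was −0.59 ± 0.30 (edgeR adjusted p = 0.37). Esrrg had 1.84, 10.5 and 2.20 CPM in placebo and 4.09, 4.08 and 3.38 CPM with DHT, so its placebo mean rests on placebo 2. Without that library its log2 fold change turned from −0.33 to 0.91.

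Of 8 coactivators and 2 corepressors, 0 were called. Ppargc1a, the PGC-1-alpha gene that couples fasting to glucose production and mitochondria (chromosome 5, 51454250 to 51567726), had 11.9, 12.1 and 5.51 CPM in placebo and 5.62, 6.95 and 4.68 CPM with DHT. Its relative Ppargc1b had 8.02, 5.12 and 2.14 CPM in placebo and 2.76, 3.27 and 2.68 CPM with DHT. In both genes placebo 1 and 2 lay above all libraries labelled DHT, and placebo 3 lay with or below them. With all libraries the log2 fold changes were −0.77 ± 0.35 for Ppargc1a (edgeR adjusted p = 0.335) and −0.81 ± 0.45 for Ppargc1b (adjusted p = 0.414). Without placebo 3 they were −1.06 and −1.18, and both genes were called lower (adjusted p = 0.0341 and 0.0419), the only 2 members called lower in any of 15 alternatives, in a fit that called 5.54% of all genes, 2.73% higher and 2.81% lower. Without both libraries numbered 3 they were not called (adjusted p = 0.0773 and 0.112), nor was any other member, where 2.95% of all genes were, 1.75% higher and 1.2% lower. Of 13 tested targets of the estrogen-related receptors and PGC-1, 0 were called by edgeR (1 at an unadjusted p under 0.05), with a median log2 fold change of −0.14, and Cs, the citrate synthase gene, had the smallest p (0.75 ± 0.31, adjusted p = 0.29).

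The p160 coactivators Ncoa1, Ncoa2 and Ncoa3 recruit histone acetyltransferases, and they had log2 fold changes of 0.45 ± 0.34, 0.08 ± 0.38 and 0.04 ± 0.40. Per kilobase the 3 genes were nearly even, each at 26.3% to 39.6% of their sum in every library. The acetyltransferase genes Ep300 and Crebbp were at 0.12 ± 0.32 and −0.28 ± 0.39, and Med1, the Mediator subunit that receptors contact, at 0.08 ± 0.26. Ncor1, the scaffold of the HDAC3 corepressor complex, had 87.3, 88.3 and 25.8 CPM in placebo and 99.1, 86.1 and 65.5 CPM with DHT, so placebo 3 alone was low. Its log2 fold change was 0.32 ± 0.45 with all libraries and −0.07 without placebo 3. Nrip1, which encodes the corepressor RIP140, had 8.56 ± 1.69 and 11.0 ± 1.69 CPM (log2 fold change 0.37 ± 0.27).

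**Figure D4:**
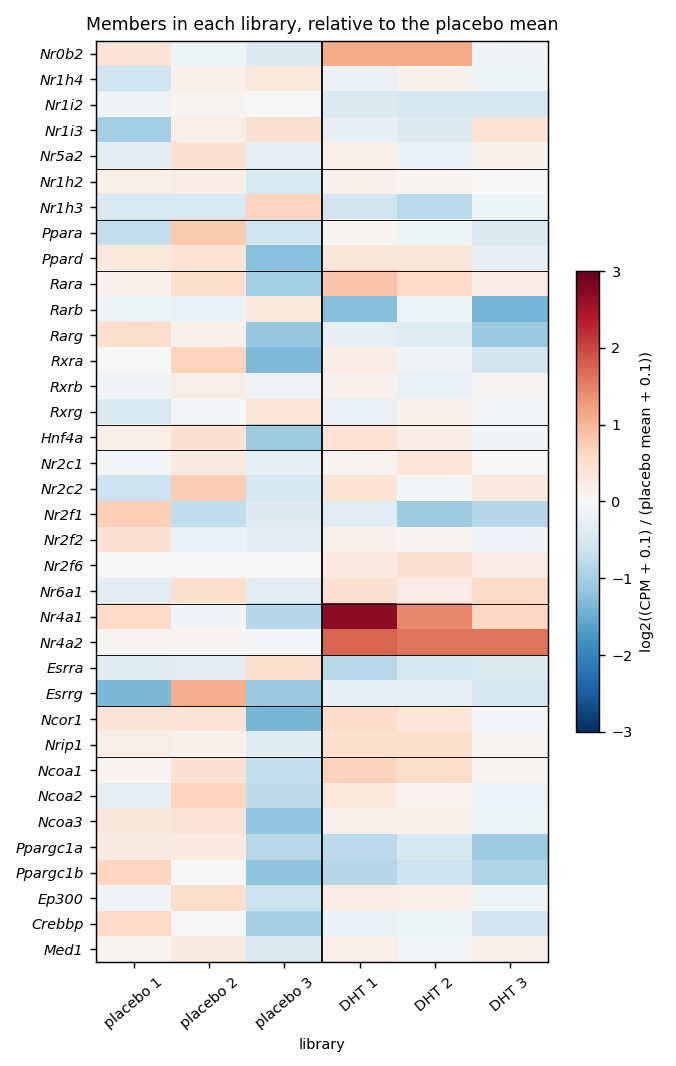
Level of the 36 tested members in each library as log2 of (CPM + 0.1) over the placebo mean + 0.1, with red above and blue below and lines between roles. Nr4a1 and Nr4a2 are red in the DHT columns, and the placebo 3 column is blue in most rows, with that library the lowest of 6 in 20 of 36 members.

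Over the 36 tested members, groups did not overlap in 5, which is 13.9%, against 23.6% of all genes tested. These were Nr4a1, Nr4a2 and Nr2f6 above placebo and Nr1i2 and Esrra below. On CPM without TMM scaling there were 5 above, with Nr1h2 and Nrip1 added, and 1 below, without Esrra. Scaling by library size alone shifted the median over all genes from −0.02 to 0.17 on the log2 scale and that of the members from 0.04 to 0.22. In 15 members (41.7%) the 95% interval of the log2 fold change lay within −1 to 1, against 29.9% of all genes, so that for these a 2-fold change either way is outside the interval. In the other 21 the interval reached past a 2-fold change.

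Placebo 3 was the lowest of the 6 libraries in 20 of the 36 members (55.6%), against 31.9% of all genes tested, and the highest in 6 (16.7%), against 29.6%. In the 15 members with at least 5 kb of exon it lay below the mean of placebo 1 and 2 in all 15, with a median log2 ratio of −0.98 (−1.76 for Ncor1, −0.42 for Nr5a2). In the 21 shorter members the median was −0.40 and 13 lay below. Over all genes tested the medians were −0.49 at 5 kb or more and 0.17 under 5 kb. The spread of log2 CPM was larger in placebo than with DHT in 31 of 36 members (86.1%), against 82.5% of all genes. The part of transcript length or RNA quality in these values was not tested.

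**Figure D5:**
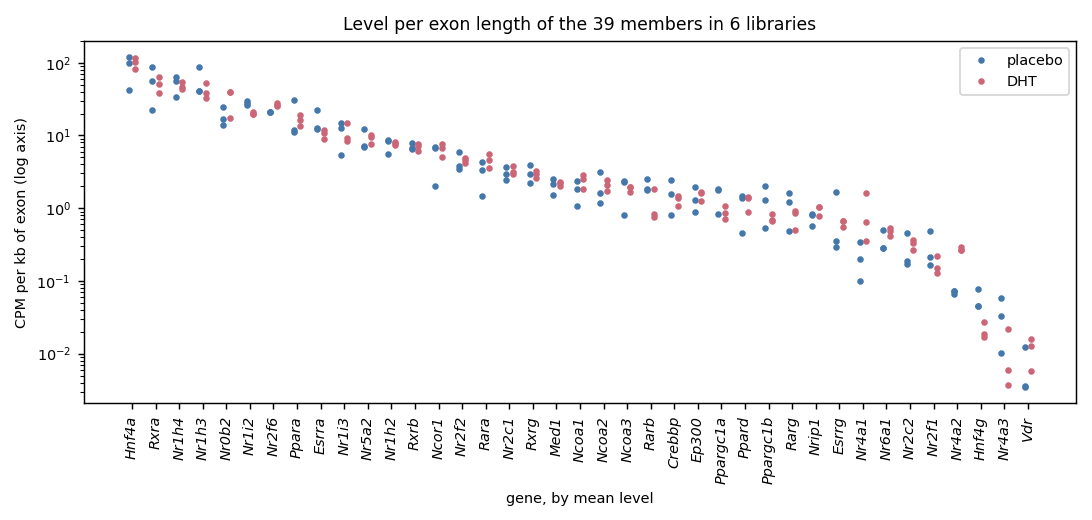
Level of all 39 members in the 6 libraries as CPM per kilobase of exon on a log axis, in order of mean level, placebo in blue and DHT in red. Levels run from Hnf4a, near 100, to Vdr, near 0.01, and the groups overlap for most genes.

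In order of level per kilobase, placebo libraries put Hnf4a (86.9 ± 40.2), Nr1h3 (57.1 ± 27.3), Rxra (55.2 ± 33.0) and Nr1h4 (50.5 ± 15.3) at the top. With DHT the order was Hnf4a (99.9 ± 16.2), Rxra (51.1 ± 13.2), Nr1h4 (48.1 ± 5.65) and Nr1h3 (41.2 ± 9.89). The ranges of the last 3 overlapped in both groups, so their order is not settled, while with DHT every Hnf4a value lay above them. In placebo the Hnf4a range, 41.8 to 119, overlapped the range of each of these genes, so its lead there is one of means only. Next in placebo came Nr1i2 (28.0 ± 1.63 in placebo, 20.1 ± 0.50 with DHT), Nr2f6 (21.1 ± 0.15 and 26.5 ± 1.62) and Nr0b2 (18.4 ± 5.28 and 32.3 ± 12.8). Coregulators were lower: Ncor1 led them at 5.24 ± 2.79 and 6.52 ± 1.32, and the other 9 had means between 0.728 and 2.41. The NR4A genes stood near the bottom, with Nr4a2 at 0.0702 ± 0.00382 and 0.275 ± 0.0182 CPM per kilobase.

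For comparison, 19 nuclear receptor genes outside the members (steroid, thyroid, clock, PPAR-gamma and other orphan receptors) held 12 tested genes, of which 0 were called higher and 1 lower. Esr1, the estrogen receptor alpha gene (chromosome 10, 4611593 to 5005614), fell 5.59-fold, from 86.2, 109 and 61.5 CPM to 21.5, 11.7 and 12.7 CPM (edgeR adjusted p = 0.0141), a call kept without placebo 3 or DHT 1 and lost without any of the other libraries (up to 0.0891). The block called 2 of the 12 higher and 2 lower. Of 27 other coregulators 0 were called by edgeR over all libraries with the low-count filter (4 at an unadjusted p under 0.05), and 4 higher and 2 lower with the block. Trim24, a coregulator of retinoic acid receptors, had the smallest p, with 43.0 ± 11.5 CPM in placebo and 17.7 ± 3.53 with DHT (log2 fold change −1.28 ± 0.29, edgeR adjusted p = 0.0812, and 0.000777 with the block). It was also called lower with no low-count filter (adjusted p = 0.0431), with limma voom, with DESeq2 (0.0019) and without placebo 3 (0.0171).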

How the data were processed

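Gene counts of liver RNA (3 libraries each for placebo and the DHT pellet) were those that the authors deposited as whole, unnormalised numbers, 1 table per library with 49212 genes, per the file headers. Trimmomatic 0.36, STAR 2.5.2b, featureCounts, Subread 1.5.2 and the build GRCm38 stand in the submitters' processing notes. Not given in the sources used here were the strand setting and how multi-mapped reads and read pairs were counted. Totals were 41336844 to 60209462 counts, so 3 counts in a library equal 0.0498 to 0.0726 CPM. Smallest chi-square per degree of freedom between libraries was 104 over 15094 genes, so none were counted as 1 sample.

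The fit was edgeR 4.0.16 in R 4.3.3 (filterByExpr by group, TMM factors 0.921 to 1.08, robust quasi-likelihood test, no covariates, Benjamini-Hochberg over 15126 genes). The SE is the log2 fold change over the square root of F, and 95% intervals use the fit's degrees of freedom. The procedure was tested on simulated data that gave all genes and both groups the same spread setting, so the larger placebo spread was not covered. Placebo and DHT libraries share numbers 1 to 3 in their titles. Deviations from the group means correlated at 0.235, 0.137 and 0.594 in pairs 1, 2 and 3 across 15126 genes, so the block with that number is given where it changes a call. Placebo 2 correlated more with DHT 1 (0.438) than with DHT 2, and the titles name no shared litter or day.

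Members and lists were chosen with earlier results of these data known. Named genes are all members and, from each list, up to 4 called genes with the smallest p or else the gene with the smallest p; further target and marker genes were picked with their values in view. Alternatives changed the scaling (DESeq2 size factors, library size alone), the filter (none, or 1 CPM or more in 3 or more libraries), the model (replicate block, limma 3.58.1 voom, DESeq2 1.42.0, edgeR without robust estimation) or left out each library. Leaving out both libraries numbered 3 was added after seeing the data. Promoter windows are from RefSeq and matched 35 of 39 members.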

Additional observations from a re-analysis of the deposited data

How the results depend on the processing

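Each value here is under 1 changed choice. Counts of all genes called were 521 with no low-count filter, 1621 with the replicate block, 707 with limma voom, 1062 with DESeq2 and 448 without both libraries numbered 3, against 250, and ran from 84 to 862 when 1 library was left out. Members called higher were 2 with the replicate block and with DESeq2 and 0 without both libraries numbered 3, against 1, and ran from 0 to 1 when 1 library was left out. Members called lower ran from 0 to 2 when 1 library was left out and were 0 in every other alternative. The block changed the calls of Nr4a1, Trim24, Abcg5, F7 and Ier2 and of no other gene that the naming rule gives. The log2 fold change turned sign in 19 members, none of them called in any alternative. With library size alone it was 0.13 for Nr1h4, 0.18 for Nr1i3, 0.053 for Ppara, 0.074 for Rxra, 0.17 for Rxrb and 0.14 for Rxrg. With limma voom it was 0.16 for Nr1h4, 0.19 for Nr1i3, −0.038 for Nr1h2, 0.01 for Ppara, 0.16 for Rxrg, −0.052 for Nr2f2, 0.12 for Esrrg, −0.13 for Ncoa3 and −0.04 for Med1. With the replicate block (the pairing by number) it was 0.053 for Nr1i3, 0.02 for Ppara, 0.074 for Rxra and 0.14 for Esrrg. With no low-count filter it was 0.00084 for Rxrb. Without both libraries numbered 3 it was 0.15 for Nr1h4, −0.12 for Nr5a2, −0.087 for Nr1h2, −0.027 for Ppard, 0.18 for Rxrg, −0.013 for Hnf4a, −0.072 for Nr2f2, −0.069 for Ncoa2, −0.24 for Ncoa3, −0.011 for Ep300 and −0.12 for Med1. With 1 library left out it ran from −0.32 to 0.11 for Nr1h4, −0.37 to 0.26 for Nr1i3, −0.12 to 0.33 for Nr5a2, −0.12 to 0.17 for Nr1h2, −0.41 to 0.49 for Ppara, −0.21 to 0.41 for Ppard, −0.49 to 0.40 for Rxra, −0.076 to 0.073 for Rxrb and −0.26 to 0.18 for Rxrg. In the same fits it ran from −0.14 to 0.49 for Hnf4a, −0.019 to 0.83 for Nr2c2, −0.12 to 0.28 for Nr2f2, −0.74 to 0.91 for Esrrg, −0.074 to 0.56 for Ncor1, −0.19 to 0.56 for Ncoa2, −0.32 to 0.27 for Ncoa3, −0.12 to 0.46 for Ep300, −0.61 to 0.12 for Crebbp and −0.10 to 0.23 for Med1. Vdr, Hnf4g and Nr4a3, at 20 counts or fewer in each library, did not pass the low-count filter.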
